A study of Homo sapiens with 16 samples.

Results

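The HLA genes and the genes that supply them with peptides were followed in OCI-AML3, a human acute myeloid leukaemia cell line. The 29 members were chosen by gene symbol: the heavy and light chains of class I, the transporters, loading factors, trimming enzymes and immunoproteasome subunits that serve class I, the chains and loading factors of class II, and the transactivators NLRC5 and CIITA. All 29 were found among the 62700 genes of the deposited table by their Ensembl identifiers.

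RNA-seq was done on 16 libraries. They came from 4 samples of untreated cells and 3 samples each of cells given ATRA, Am80, ATRA with GSK-LSD1 and MB3, or Am80 with GSK-LSD1 and MB3. ATRA (all-trans retinoic acid) activates every retinoic acid receptor and Am80 (tamibarotene), a synthetic retinoid, activates the receptor RARA. GSK-LSD1 blocks the histone demethylase LSD1 and MB3 blocks the histone acetyltransferase GCN5, and the pair is called the inhibitors here. The study's methods give 0.1 µM for ATRA, Am80 and GSK-LSD1, 100 µM for MB3 and 3 h of treatment. No library of the inhibitors without a retinoid was analysed here, so the comparison of a retinoid plus inhibitors with the retinoid alone is the only view of the inhibitors. All libraries come from 1 cell line, and the labels do not say that replicates were separate cultures, so p-values measure the spread between these samples, which may be technical.

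Class I molecules sit on nearly all nucleated cells and show peptides from inside the cell to CD8 T cells and natural killer cells. The proteasome cuts the peptides, the transporter TAP carries them into the endoplasmic reticulum, ERAP enzymes trim them, and tapasin and PDIA3 help load them on a heavy chain paired with B2M. Class II molecules show peptides from outside the cell to CD4 T cells, and in monocytes, dendritic cells and B cells their genes are switched on by CIITA. NLRC5 plays the matching part for class I.

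The files hold normalized counts, that is reads per gene divided by a size factor for the library. Total reads were between 11963898 and 33789718 per library. A list of 10 myeloid markers summed to between 23448 and 35154 normalized counts in every library with none at the floor, where the floor is at most 3 reads in every library. All 4 erythroid markers, 4 of 7 T and NK cell markers, 3 of 5 dendritic cell markers and 2 of 6 B cell markers were at the floor. The sum of the dendritic cell list was 34.9 to 58.7 without inhibitors and 59.2 to 99.0 with them, nearly all of it from CD1C and CLEC4C, and its part in the results was not tested. Untreated replicate 4 and Am80 replicate 2 stood apart: over all genes the chi-square per degree of freedom was 16 to 23.4 and 17.2 to 25.9 in pairs that hold them and 2.75 to 6.23 in the other replicate pairs. Untreated replicate 4 was the highest untreated library for HLA-B, HLA-C, HLA-E, HLA-F, B2M, TAP1, PDIA3, CIITA, PSMB8, PSMB9 and PSMB10, and the lowest for TAPBP. It was not the highest for HLA-G, TAP2, ERAP1, ERAP2, NLRC5 or CD74. Am80 replicate 2 had the lowest TAP1, PSMB9 and PSMB10 of its group. Calls that change without either library are given beside the members.

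HLA-B, HLA-C, HLA-F, HLA-G, TAP1 and PSMB9 were called lower with ATRA plus inhibitors than with ATRA. Of these, only HLA-C, TAP1 and PSMB9 were also called lower with Am80 plus inhibitors than with Am80. The 250 bases before the start of the 6 genes are shown, from RefSeq on GRCh38.p14 and read along the gene. HLA-B lies on the minus strand at chr6:31357180-31357429, HLA-C on the minus strand at chr6:31272093-31272342, HLA-F on the plus strand at chr6:29723184-29723433 and HLA-G, by 1 of its 3 listed starts, on the plus strand at chr6:29827575-29827824. TAP1 on the minus strand at chr6:32853705-32853954 and PSMB9 on the plus strand at chr6:32853942-32854191 lie head to head and share the few bases where their windows meet. Capitals mark CCAAT, GAANNGAAA and a pair of GAAA blocks spaced by 2 bases, on either strand. CCAAT is the core bound by the factor NF-Y, and the other 2 are spacings of the element bound by interferon regulatory factors.
HLA-B promoter: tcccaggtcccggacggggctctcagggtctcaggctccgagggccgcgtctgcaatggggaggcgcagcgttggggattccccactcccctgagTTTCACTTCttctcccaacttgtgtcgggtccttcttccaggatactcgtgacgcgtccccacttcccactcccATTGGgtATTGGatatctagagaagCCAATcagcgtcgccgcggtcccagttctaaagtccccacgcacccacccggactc
HLA-C promoter: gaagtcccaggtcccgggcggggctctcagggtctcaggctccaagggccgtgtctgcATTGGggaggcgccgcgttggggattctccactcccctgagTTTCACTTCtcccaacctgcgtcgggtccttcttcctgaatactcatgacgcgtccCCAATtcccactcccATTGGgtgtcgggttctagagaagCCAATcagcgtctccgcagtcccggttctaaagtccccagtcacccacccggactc
HLA-F promoter: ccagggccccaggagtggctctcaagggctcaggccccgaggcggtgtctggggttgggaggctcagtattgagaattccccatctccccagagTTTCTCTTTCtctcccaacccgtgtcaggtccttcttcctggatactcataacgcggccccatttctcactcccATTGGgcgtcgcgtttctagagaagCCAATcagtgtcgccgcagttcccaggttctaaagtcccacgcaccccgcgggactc
HLA-G promoter: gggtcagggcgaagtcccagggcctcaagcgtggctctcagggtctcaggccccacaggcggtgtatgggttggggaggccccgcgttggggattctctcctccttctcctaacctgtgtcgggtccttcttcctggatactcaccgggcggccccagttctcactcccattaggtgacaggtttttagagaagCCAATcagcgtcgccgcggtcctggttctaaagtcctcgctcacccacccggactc
TAP1 promoter: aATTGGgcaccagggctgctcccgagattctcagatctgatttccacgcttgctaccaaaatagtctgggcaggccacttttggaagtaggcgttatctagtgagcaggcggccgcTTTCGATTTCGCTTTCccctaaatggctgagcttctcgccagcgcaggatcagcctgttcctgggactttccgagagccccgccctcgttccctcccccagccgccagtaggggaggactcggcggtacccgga
PSMB9 promoter: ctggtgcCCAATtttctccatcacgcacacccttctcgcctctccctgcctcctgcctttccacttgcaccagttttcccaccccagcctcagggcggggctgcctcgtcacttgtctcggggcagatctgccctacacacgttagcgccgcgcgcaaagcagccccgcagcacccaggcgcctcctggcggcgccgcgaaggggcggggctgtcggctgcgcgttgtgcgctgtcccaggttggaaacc
HLA-B and HLA-C carry the same capital stretch TTTCACTTC, the reverse strand of GAANNGAAA, while HLA-F has TTTCTCTTTC, a match to the pair of GAAA blocks, and the HLA-G window has neither. The TAP1 window holds 2 overlapping matches to the pair of blocks. PSMB8 and PSMB10, also called lower with ATRA plus inhibitors than with ATRA, are not shown. The PSMB8 windows held none of the marked motifs, and the PSMB10 window held 1 pair of blocks. Of the 24 members with a RefSeq window, 18 held CCAAT in at least 1 window, 5 held GAANNGAAA and 7 held the pair of blocks. Among all 35116 windows of the same length, 32% held CCAAT, 6.56% GAANNGAAA and 3.02% the pair of blocks. The 24 members have 31 windows and each counts if any window matches, so these shares of single windows are not a like measure. The 24 also include class II genes that were too low to be tested. A direct repeat of the retinoic acid response element, spaced by 1, 2 or 5 bases, was found in 0.202% of all windows and among the members in 1, HLA-DPA1, which was at the floor. A match is a run of letters and not a bound site.

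The members split sharply by class in level. All 16 members of class I and its machinery, with NLRC5 counted among them, passed the limit of a mean of 10 normalized counts for testing, as did CD74 and CIITA of class II, which makes 18 members tested. The other 11 were class II chains and their loading factors. HLA-DRA, the chain shared by all DR molecules, was at 0 in 14 libraries, at 0.72 in ATRA replicate 3 and at 1.10 in Am80 plus inhibitors replicate 1, which is 1 read in each. HLA-DRB1 and HLA-DQB1 had 1 read in 1 library, and HLA-DPA1 had at most 2 reads in any. HLA-DRB5, HLA-DPB1, HLA-DQA1 and HLA-DOA had 0 reads in all 16 libraries, which at 3 reads of the total allows up to 0.0888 RPM in the deepest library and 0.251 RPM in the shallowest, for counting error only. HLA-DMA and HLA-DMB, which load peptide on class II, and HLA-DOB, which restrains them, reached 13, 4 and 5 reads at most. HLA-DMA lay between 1.86 and 9.09 normalized counts and its groups overlapped. These 8 members at the floor and 3 near it were not tested, and no treatment brought any of them to 10 normalized counts.

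**Figure D1:**
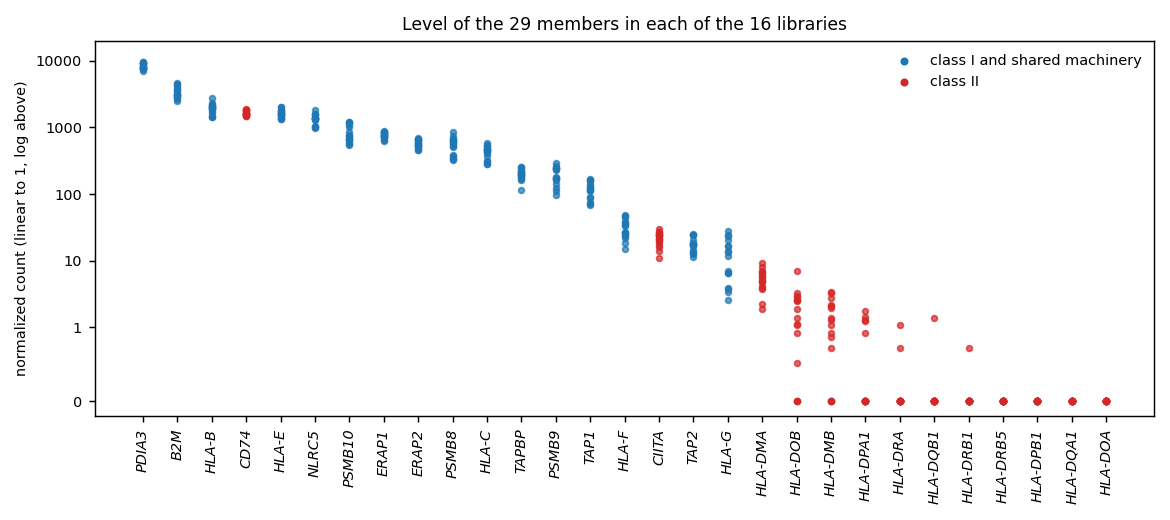
Normalized count of each of the 29 members (horizontal axis, ordered by total) in each of the 16 libraries (points); the vertical axis is linear up to 1 and logarithmic above, blue marks class I and shared machinery and red marks class II. CD74 lies among the class I genes, CIITA lies between 11 and 29.9, and the 11 class II chains and loading factors lie below 10 in every library.

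CD74, the invariant chain that escorts class II molecules, was high although its partners were not. It stood at 1627, 1604, 1846 and 1806 normalized counts in untreated cells, at 1517, 1560.5 and 1568 with ATRA, at 1535, 1565 and 1639 with Am80, at 1478, 1498 and 1762 with ATRA plus inhibitors and at 1892, 1827 and 1647 with Am80 plus inhibitors. The groups overlapped or lay close, and CD74 did not pass with the deposited scaling. With libraries scaled to their total reads it was called lower with ATRA plus inhibitors than in untreated cells (log2 -0.27, adjusted p 0.0022 by limma), where the median of all genes was -0.15. CIITA, the class II transactivator, stood at 19.5, 26.8, 16.2 and 29.9 in untreated cells, 21.2, 23.3 and 26.6 with ATRA and 24.1, 25.4 and 21.0 with Am80. With inhibitors it stood at 24.4, 17.4 and 19.3 beside ATRA and 24.1, 11 and 14.2 beside Am80. CIITA did not pass with the deposited scaling either, and a log2 change of -0.56 against Am80 had an adjusted p of 0.12 by limma. With total read scaling it was called lower with Am80 plus inhibitors than in untreated cells (-0.67, adjusted p 0.032 by limma), where the median of all genes was -0.19.

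Per kilobase of exon, PDIA3 was the highest member in untreated cells at 1876 ± 44.2 normalized counts (SD, n = 4). HLA-B at 700.2 ± 143.6, HLA-E at 572 ± 78.9, B2M at 564 ± 112, CD74 at 540.5 ± 38.5 and PSMB10 at 435 ± 126 followed, and these neighbours lay within the spread of one another. PSMB8 at 221 ± 44.1 and HLA-C at 183 ± 38.1 came next, also within their spread. ERAP1, NLRC5, PSMB9 and ERAP2 lay between 63.7 and 85.8, TAPBP at 41.6 and TAP1 at 28.4. HLA-F at 6.09 ± 1.73 and HLA-G at 5.76 ± 3.32 could not be told apart, and TAP2 at 2.86 and CIITA at 1.11 were the lowest tested. HLA paralogs are alike in sequence: of the distinct 51-base stretches of each gene's transcripts, 2.54% of HLA-B, 5.12% of HLA-C, 4.2% of HLA-E, 0.932% of HLA-F and 3.32% of HLA-G also occur in another gene. An allele of the cell line that differs from the reference, and the handling of reads that fit several genes, could move reads among them, and neither is known here.

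The retinoids alone raised few members. Tests were made with limma on log2(normalized count + 1) over 14643 genes with the p-values adjusted by Benjamini-Hochberg, and a gene was called at an adjusted p under 0.05. With ATRA 4 of 18 members were higher and 0 lower than in untreated cells, against 12.5% of all tested genes higher and 12.1% lower. With Am80 4 were higher and 0 lower, against 15.4% and 13.4%. The median log2 change of the 18 members was 0.06 with ATRA and 0.11 with Am80, and that of all genes was -0.02 and -0.01. Both comparisons use the same untreated samples.

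NLRC5, the class I transactivator, gave the clearest retinoid change of the members. It stood at 975, 1067, 1020.1 and 1016 normalized counts in untreated cells, at 1597, 1806 and 1570.2 with ATRA and at 1327, 1274 and 1533 with Am80. Every retinoid library lay above every untreated one. The fitted rise was 1.62-fold (95% confidence interval 1.47 to 1.79, adjusted p 9.1e-08) with ATRA and 1.35-fold (1.22 to 1.49, adjusted p 6.1e-05) with Am80. With inhibitors the values were 1380.5, 1366 and 1366 beside ATRA and 1391, 1349.7 and 1406 beside Am80, which remained above untreated cells (1.35-fold and 1.36-fold, adjusted p 2.3e-05 and 1.8e-05). Against ATRA alone the addition of inhibitors lowered NLRC5 by 0.27 on the log2 scale (adjusted p 0.0049), while against Am80 alone the log2 difference was 0.01. These calls were kept under all alternatives run.

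HLA-F, a non-classical class I chain, was the heavy chain called with both retinoids. It stood at 26.5, 24.0, 18.7 and 36.6 normalized counts in untreated cells, at 49.2, 44.9 and 33.1 with ATRA and at 47.3, 39.9 and 36.2 with Am80, so that untreated replicate 4 reached into both retinoid groups. The rise was 1.60-fold (1.15 to 2.24, adjusted p 0.035) and 1.57-fold (1.12 to 2.19, adjusted p 0.040). Both calls were fragile: that with ATRA was lost without ATRA replicate 1 or 2 or untreated replicate 1, 2 or 3 (log2 0.53 to 0.70), and that with Am80 without Am80 replicate 1 or 2 or untreated replicate 1, 2 or 3 (log2 0.50 to 0.67). Without untreated replicate 4 they were 0.85 and 0.81, and with total read scaling the rise with Am80 no longer passed (0.59).

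HLA-G, a non-classical chain known for binding inhibitory receptors, had at most 34 reads in any library. The study names it among genes lowered when the inhibitors were added to the retinoids. It stood at 6.97, 16.6, 3.74 and 13.3 normalized counts in untreated cells, at 28.0, 13.8 and 24.5 with ATRA and at 23.2, 11.9 and 20.3 with Am80. The groups overlapped. The log2 differences of 1.17 and 0.93 from untreated cells did not pass the test, with an adjusted p of 0.088 for ATRA. Of the HLA-G exon bases 25.8% and of the HLA-F exon bases 28.5% overlap genes on the opposite strand, and since the strand setting of the counting is not known such reads may be included.

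ERAP1 and ERAP2, the peptidases that trim class I peptides, were slightly higher. ERAP2 lay between 450.4 and 499 normalized counts in untreated cells, 548 and 575 with ATRA, and 545 and 664 with Am80, a rise of 1.18-fold (adjusted p 0.027) and 1.24-fold (adjusted p 0.0050). ERAP1 lay between 629 and 731 in untreated cells and 765 and 849 with ATRA, a rise of 1.19-fold (adjusted p 0.036), and between 707 and 861 with Am80, which did not pass. The ERAP1 call was lost without ATRA replicate 1 or 3 or untreated replicate 1 or 4 (log2 0.21 to 0.25), and the ERAP2 call with ATRA without any 1 of the ATRA replicates or untreated replicate 1 (0.22 to 0.25). With libraries scaled to their total reads ERAP1 with ATRA no longer passed (log2 0.24).

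B2M, the light chain of all class I molecules, was called with Am80. It stood at 3182, 3053, 3024 and 4445 normalized counts in untreated cells, at 3093, 3036 and 3637 with ATRA and at 4688, 4321 and 4011 with Am80. Am80 lay above 3 of the 4 untreated libraries, and untreated replicate 4 lay within the Am80 group. The rise was 1.28-fold (1.09 to 1.51, adjusted p 0.023), and it was lost without Am80 replicate 1 or 2 or untreated replicate 1, 2 or 3 (log2 0.30 to 0.36). Without untreated replicate 4, the log2 rise of B2M with Am80 was 0.49, HLA-B (0.22) and HLA-C (0.34) were also called higher with Am80, and PSMB10 was called higher with ATRA (0.50) and Am80 (0.58), while TAPBP was called lower with Am80 (-0.31). Without Am80 replicate 2, PSMB10 was called higher with Am80 (0.62).

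**Figure D2:**
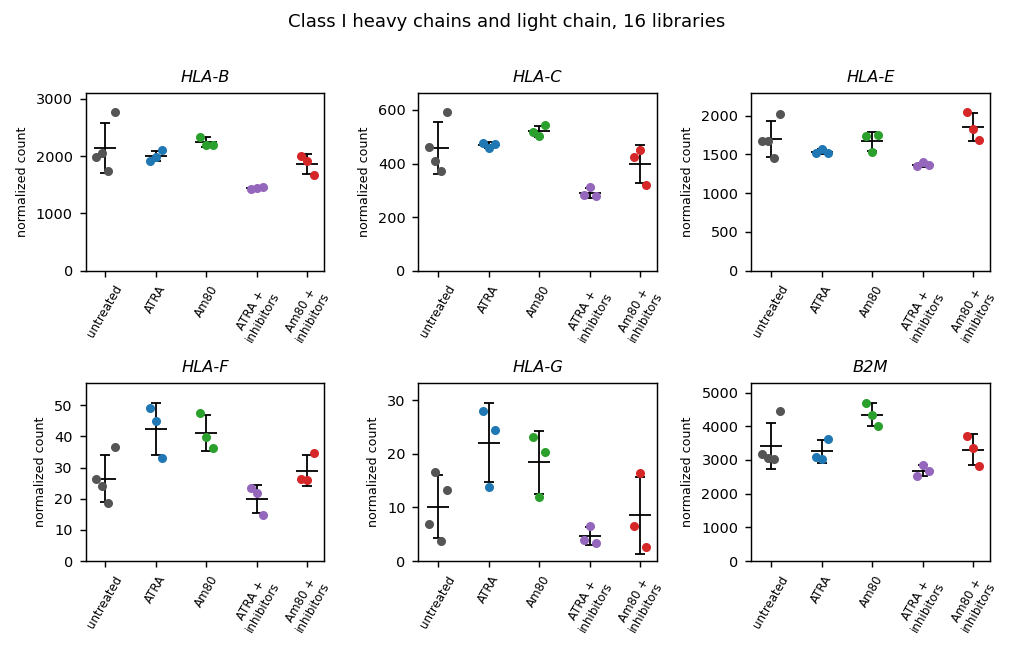
Normalized counts (vertical axes, each from 0) of 5 class I heavy chains and B2M in the 5 groups; points are libraries, and bars are the mean and SD (n = 4 untreated, 3 in each other group). HLA-B and HLA-C are lowest with ATRA plus inhibitors, HLA-F and HLA-G stay below 50 counts, and the highest untreated point of HLA-B, HLA-C, HLA-E, HLA-F and B2M is replicate 4.

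Adding the inhibitors to ATRA lowered 4 of 5 class I heavy chains, TAP1, all 3 immunoproteasome subunits and NLRC5. Adding them to Am80 lowered 1 of 5 heavy chains, HLA-C, with B2M, TAP1 and all 3 immunoproteasome subunits. Beside ATRA, 9 of 18 members were lower than with ATRA alone and 2 higher, against 24.4% of all tested genes lower and 24.9% higher. Beside Am80, 6 were lower and 1 higher, against 19.5% and 19.9%. The members' median log2 change was -0.28 and -0.34, and that of all genes was -0.02 and -0.01. Against untreated cells, ATRA plus inhibitors had 8 members lower and 4 higher, with 30.0% of all genes lower and 30.2% higher, and a members' median of -0.32. Am80 plus inhibitors had 3 lower and 3 higher, with 26.6% and 28.0% of all genes and a members' median of -0.04, so fewer members were called in either direction than the share of all genes would give. The median of all genes was -0.003 in both. With total read scaling the split changed to 7 lower and 1 higher for Am80 plus inhibitors against untreated cells (all genes 41.2% and 18%) and to 9 lower and 2 higher for ATRA plus inhibitors (40.0% and 21.6%). It was then 11 lower and 1 higher beside ATRA (35.8% and 15.2%) and 8 lower and 0 higher beside Am80 (30.3% and 12.5%). The 2 comparisons with untreated cells share their control samples, and each group with inhibitors enters 2 of these 4 comparisons.

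Without untreated replicate 4, ATRA plus inhibitors had 8 members lower and 4 higher than untreated cells. Am80 plus inhibitors had 3 lower and 4 higher. Of all genes, 8639 and 8054 were then called in either direction, in place of 8819 and 8004 with every library. Among members also called with every library, the log2 falls with ATRA plus inhibitors were then smaller. They were -0.41 for HLA-B, -0.50 for HLA-C, -0.22 for HLA-E, -0.21 for B2M, -0.79 for TAP1, -0.85 for PSMB8 and -0.77 for PSMB9. TAPBP (-0.43), not called with every library, took the place of PSMB10, and its fall was larger. With Am80 plus inhibitors the falls were -0.42 for TAP1 and -0.53 for PSMB8, and TAPBP (-0.30) took the place of PSMB9. The rises against untreated cells were then 0.24 and 0.25 for PDIA3 beside ATRA and Am80, 0.48 and 0.35 for ERAP2, 0.43 and 0.44 for NLRC5, and 0.28 for ERAP1 beside ATRA. HLA-E, not called with every library, rose by 0.21 beside Am80. All of these passed.

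HLA-B, a classical heavy chain, stood at 1987, 2061, 1738 and 2759.8 normalized counts in untreated cells, at 1916, 1985 and 2097 with ATRA and at 2337, 2184 and 2197 with Am80. With inhibitors it stood at 1430.3, 1447 and 1458 beside ATRA and at 1996, 1908 and 1667 beside Am80. All ATRA plus inhibitors libraries lay below every other library. The fitted level was 0.72 of that with ATRA (95% confidence interval 0.62 to 0.85, adjusted p 0.0017) and 0.69 of that in untreated cells (0.59 to 0.80, adjusted p 0.00015). Against Am80 the log2 difference was -0.27 with an adjusted p of 0.056, which did not pass. Without untreated replicate 4 the same difference passed, and with total read scaling it was -0.40 and passed, where the median of all genes was -0.13. With that scaling HLA-B was also called lower with Am80 plus inhibitors than in untreated cells (-0.37), where the median was -0.19. Of the HLA-B exon bases 17.8% overlap a gene on the opposite strand and 1.15% a gene on the same strand.

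HLA-C, the classical heavy chain that is also a main ligand of natural killer cell receptors, stood at 460.2, 410.1, 371 and 591 normalized counts in untreated cells, at 477, 456 and 471 with ATRA and at 518, 502 and 543 with Am80. With inhibitors it stood at 282, 312 and 278 beside ATRA and 423, 452 and 318 beside Am80. Each group with inhibitors lay below its retinoid. The fall was to 0.62 of the ATRA level (0.51 to 0.76, adjusted p 0.00033) and to 0.76 of the Am80 level (0.62 to 0.92, adjusted p 0.022). The call against Am80 was lost without Am80 replicate 1 or 3 or without Am80 plus inhibitors replicate 3 (log2 -0.41 to -0.25). Against untreated cells HLA-C fell to 0.64 with ATRA plus inhibitors (adjusted p 0.00023). With total read scaling it was also called lower with Am80 plus inhibitors (log2 -0.38), where the median of all genes was -0.19.

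HLA-E, which binds leader peptides of other class I chains, differed less. It stood at 1668, 1673, 1449.8 and 2018 normalized counts in untreated cells, at 1523, 1575 and 1514 with ATRA and at 1735, 1530.0 and 1747 with Am80. With inhibitors it stood at 1348, 1399 and 1358 beside ATRA and at 2041, 1825 and 1685 beside Am80. ATRA plus inhibitors lay below all other libraries, and the level was 0.81 of that in untreated cells (0.71 to 0.92, adjusted p 0.0054). Without untreated replicate 4 HLA-E was also called higher with Am80 plus inhibitors than in untreated cells (log2 0.21). With total read scaling it was called lower with ATRA plus inhibitors than with ATRA (-0.31), where the median of all genes was -0.16.

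HLA-F stood at 23.4, 21.7 and 14.8 normalized counts with ATRA plus inhibitors, below all ATRA libraries, a fall to 0.48 (0.34 to 0.69, adjusted p 0.0015). Beside Am80 it stood at 26.3, 26.1 and 34.8, with a log2 difference of -0.49 that did not pass. HLA-G stood at 3.91, 6.52 and 3.41 with ATRA plus inhibitors, below all ATRA libraries, and the fitted level was 0.25 of that with ATRA (0.12 to 0.52, adjusted p 0.0032). Beside Am80 HLA-G stood at 6.58, 16.5 and 2.57, overlapping Am80 alone, with a log2 difference of -1.27 and an adjusted p of 0.058. It passed without untreated replicate 4, without Am80 replicate 2 (-1.54) and with total read scaling (-1.38, median of all genes -0.13). Folds on the log2(value + 1) scale understate changes at such low counts.

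B2M stood at 2512, 2839.9 and 2677 normalized counts with ATRA plus inhibitors and at 3722, 3369 and 2827 with Am80 plus inhibitors. It fell to 0.76 of the Am80 level (0.64 to 0.91, adjusted p 0.013) and, with ATRA plus inhibitors, to 0.79 of the untreated level (0.67 to 0.93, adjusted p 0.015). The former call was lost without Am80 replicate 1 or Am80 plus inhibitors replicate 3 (log2 -0.34 and -0.29), and the latter without ATRA plus inhibitors replicate 1 (-0.29). Against ATRA the log2 difference was -0.28 and did not pass. It passed without untreated replicate 4 and with total read scaling (-0.43, median of all genes -0.16).

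TAP1, a subunit of the peptide transporter, fell in all 4 comparisons. It stood at 113, 142, 126 and 164 normalized counts in untreated cells, at 154, 119 and 133 with ATRA and at 159.7, 119 and 168 with Am80. With inhibitors it stood at 77.1, 71.7 and 69.3 beside ATRA and 109.6, 89.3 and 86.3 beside Am80, below every library without inhibitors. The level was 0.54 of that with ATRA (0.43 to 0.68, adjusted p 0.00012) and 0.64 of that with Am80 (0.51 to 0.81, adjusted p 0.0030). TAP2, its partner, lay between 11.5 and 25.1 in all libraries and did not pass. About 32.3% of the TAP2 exon bases overlap another gene on the same strand, so its count may be incomplete.

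The 3 immunoproteasome subunits, PSMB8, PSMB9 and PSMB10, replace the catalytic subunits of the ordinary proteasome. PSMB8 stood at 668, 626, 521 and 839 normalized counts in untreated cells, at 560.1, 594 and 653 with ATRA and at 732, 589.8 and 660.3 with Am80. With inhibitors PSMB8 stood at 343, 323 and 334 beside ATRA and at 503, 374 and 381 beside Am80. Every library with inhibitors lay below every library without. The level was 0.55 of that with ATRA (0.46 to 0.68, adjusted p 3.7e-05) and 0.63 of that with Am80 (0.52 to 0.77, adjusted p 0.00060). Of the PSMB8 exon bases 20.6% overlap genes on the opposite strand.

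PSMB9, the neighbour of TAP1, stood at 227, 169.9, 172 and 294 normalized counts in untreated cells, at 247, 244 and 234 with ATRA and at 262, 180.2 and 244 with Am80. With inhibitors PSMB9 stood at 124, 112 and 95.5 beside ATRA and at 174, 142 and 165 beside Am80. Each group with inhibitors lay below its retinoid. The level was 0.46 of that with ATRA (0.36 to 0.59, adjusted p 2.6e-05) and 0.71 of that with Am80 (0.55 to 0.91, adjusted p 0.028). The Am80 call was lost without Am80 replicate 1 or 3 or Am80 plus inhibitors replicate 2 or 3 (log2 -0.52 to -0.39). The call of Am80 plus inhibitors against untreated cells (0.76, adjusted p 0.046) was at the threshold. It was lost without any 1 of the ATRA replicates, ATRA plus inhibitors replicate 2, Am80 replicate 3, Am80 plus inhibitors replicate 2 or 3, or untreated replicate 1 or 4 (log2 -0.42 to -0.23).

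PSMB10 stood at 661, 773, 644 and 1147 normalized counts in untreated cells, at 847, 1072 and 1022 with ATRA and at 1222, 754 and 1185 with Am80. With inhibitors PSMB10 stood at 642, 554 and 547 beside ATRA and 742, 704 and 608 beside Am80. Each group with inhibitors lay below its retinoid. The level was 0.59 of that with ATRA (0.46 to 0.77, adjusted p 0.0019) and 0.66 of that with Am80 (0.51 to 0.86, adjusted p 0.013). The Am80 call was lost without Am80 replicate 1 or 3 or Am80 plus inhibitors replicate 3 (log2 -0.51 to -0.47). The fall with ATRA plus inhibitors against untreated cells (log2 -0.43, adjusted p 0.032) was lost without ATRA plus inhibitors replicate 2 or 3 (-0.40 and -0.39) and without untreated replicate 4 (-0.25). With total read scaling PSMB10 was also called lower with Am80 plus inhibitors than in untreated cells (-0.38), where the median of all genes was -0.19. About 34.7% of the PSMB10 exon bases overlap another gene on the same strand.

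**Figure D3:**
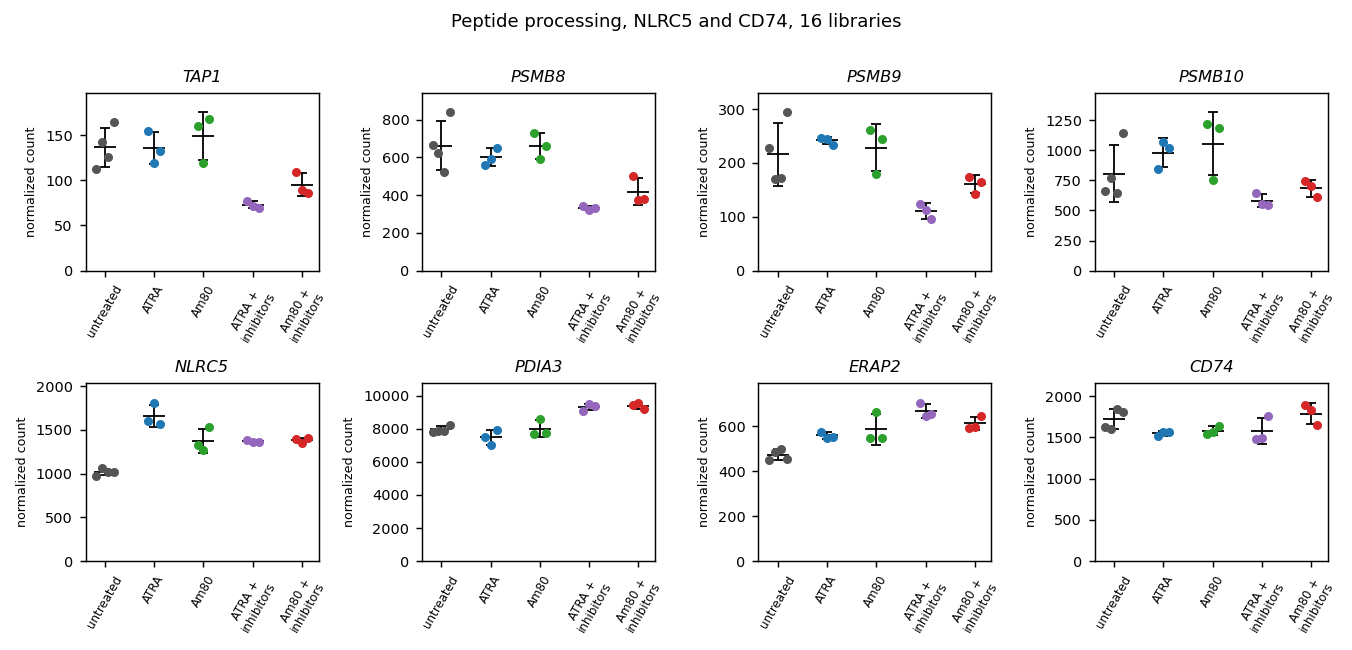
Normalized counts (vertical axes, each from 0) of TAP1, the 3 immunoproteasome subunits, NLRC5, PDIA3, ERAP2 and CD74 in the 5 groups; points are libraries, and bars are the mean and SD (n = 4 untreated, 3 in each other group). TAP1 and PSMB8 are lower in every library with inhibitors than in every library without, NLRC5 is higher in every treated library than in every untreated one, and PDIA3 is highest with inhibitors.

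Not every member of the class I route fell. PDIA3, a disulfide isomerase of the loading complex with wider work in protein folding, lay between 7015 and 8577 normalized counts without inhibitors and between 9085 and 9524 with them. It rose 1.25-fold against ATRA (adjusted p 0.00031), 1.17-fold against Am80 (adjusted p 0.0060), and 1.17-fold and 1.18-fold against untreated cells (adjusted p 0.0022 and 0.0017). These rises depend on the scaling: when libraries were scaled to their total reads the log2 differences were 0.17, 0.11, 0.08 and 0.05, of which the first passed the test, and quantile normalization lost the other calls as well. With total read scaling the median of all genes was -0.16, -0.13, -0.15 and -0.19, and relative to it PDIA3 stood at 0.33, 0.24, 0.23 and 0.24. Of the PDIA3 exon bases 18.9% overlap genes on the opposite strand, and 15% of its 51-base stretches occur in another gene. TAPBP, which encodes tapasin, lay between 114 and 258 in untreated cells and between 164 and 236 in all treated libraries and did not pass. Without untreated replicate 4, which gave the value of 114, TAPBP was called lower with ATRA plus inhibitors (log2 -0.43) and with Am80 plus inhibitors (-0.30) than in untreated cells, and lower with ATRA plus inhibitors than with ATRA (-0.28).

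ERAP2 lay between 646 and 702 normalized counts with ATRA plus inhibitors and between 592 and 646 with Am80 plus inhibitors. It rose 1.41-fold and 1.29-fold against untreated cells (adjusted p 1.5e-05 and 0.00040) and 1.2-fold against ATRA (adjusted p 0.014), the last lost without ATRA plus inhibitors replicate 1 (log2 0.22). ERAP1 lay between 789 and 877 with ATRA plus inhibitors, a rise of 1.24-fold against untreated cells (adjusted p 0.0033). With total read scaling ERAP1 (log2 0.16), ERAP2 with Am80 plus inhibitors (0.19) and ERAP2 against ATRA (0.11) no longer passed.

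**Figure D4:**
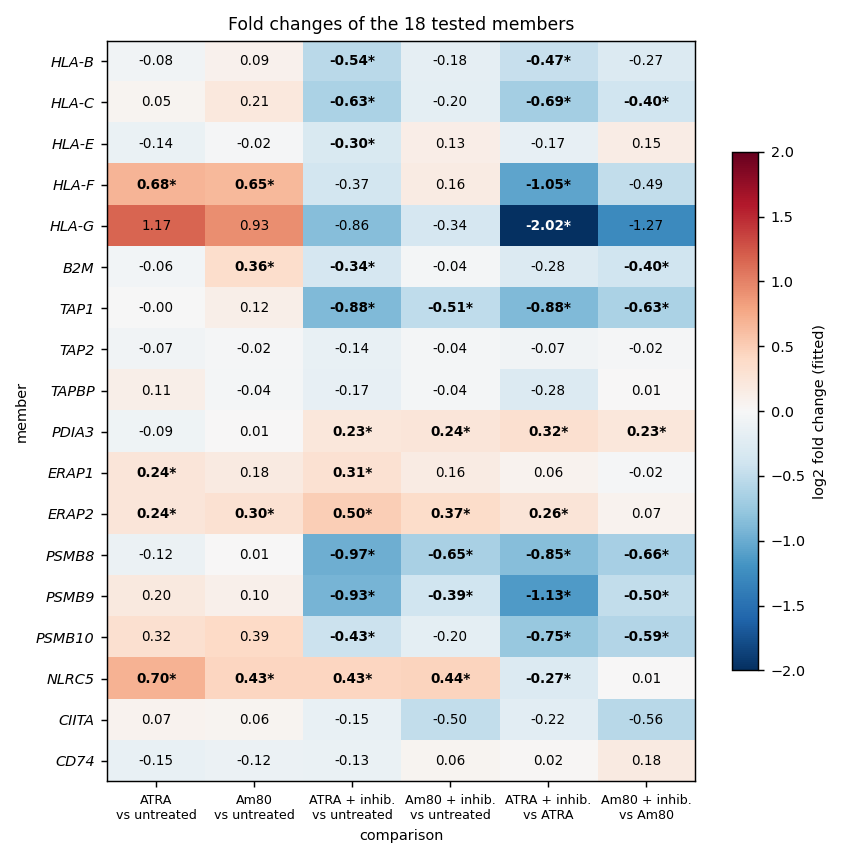
Fitted log2 fold change of the 18 tested members (rows) in 6 comparisons (columns); colour runs from blue (lower) to red (higher), and an asterisk with bold type marks an adjusted p under 0.05 by limma. The columns with inhibitors show TAP1 and PSMB8 lower in all 4 while PDIA3 is higher, and the first 2 columns show NLRC5, HLA-F and ERAP2 higher.

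ATRA and Am80 were compared directly at the same dose and time, alone and with the inhibitors. Between the retinoids alone 0 of 18 members passed in limma, with 0.184% of all genes higher with Am80 and 0.0546% lower, and 2 members (11.1%) had an unadjusted p under 0.05 against 13.9% of all genes, which is no more than the background. These were B2M, higher with Am80 by 0.42 on the log2 scale (95% confidence interval 0.16 to 0.67), and NLRC5, lower by 0.27 (-0.42 to -0.11), and in both the 2 groups did not overlap. edgeR called 0 members and DESeq2 called 2, with 343 of all genes. For the heavy chains the intervals were -0.07 to 0.40 for HLA-B, -0.13 to 0.44 for HLA-C, -0.08 to 0.31 for HLA-E, -0.55 to 0.48 for HLA-F and -1.32 to 0.85 for HLA-G, so differences of that size were not resolved.

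With the inhibitors, Am80 and ATRA again gave 0 calls among 18 members, with 0% of all genes called higher and 0% lower, and 9 members (50%) had an unadjusted p under 0.05 against 18.1% of all genes. All 9 were higher with Am80 plus inhibitors. Among them HLA-E differed by 0.43 (0.23 to 0.63, adjusted p 0.12), PSMB9 by 0.54 (0.17 to 0.90), HLA-C by 0.44 (0.15 to 0.72) and HLA-B by 0.36 (0.13 to 0.59). The members' median difference was 0.27 and that of all genes -0.003. edgeR called 0 members and DESeq2 called 1, with 119 of all genes. Untreated replicate 4, which is in neither group and enters only through the shared estimate of the spread, changed this result: without it HLA-B, HLA-C, HLA-E, B2M and PSMB9 passed, with 646 of all genes in place of 0, and B2M and NLRC5 passed between the retinoids alone, with 458 of all genes in place of 35. Without Am80 replicate 2, also in neither group, HLA-E passed, with 243 of all genes. Without Am80 replicate 3, 1 member passed between the retinoids alone, with 452 of all genes in place of 35.

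The difference between the effects of the inhibitors beside Am80 and beside ATRA was tested as an interaction. In limma 0 members passed, 0% of all genes were called in either direction, and 3 members (16.7%) had an unadjusted p under 0.05 against 15.1% of all genes, which is near the background. edgeR and DESeq2 also called 0 members. The 3 were PSMB9 with a difference of 0.63 (95% confidence interval 0.12 to 1.15), HLA-E with 0.31 (0.04 to 0.59) and NLRC5 with 0.28 (0.06 to 0.50), each less lowered or more raised beside Am80. The larger number of members called lower beside ATRA is therefore not shown to be a difference between the retinoids.

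**Figure D5:**
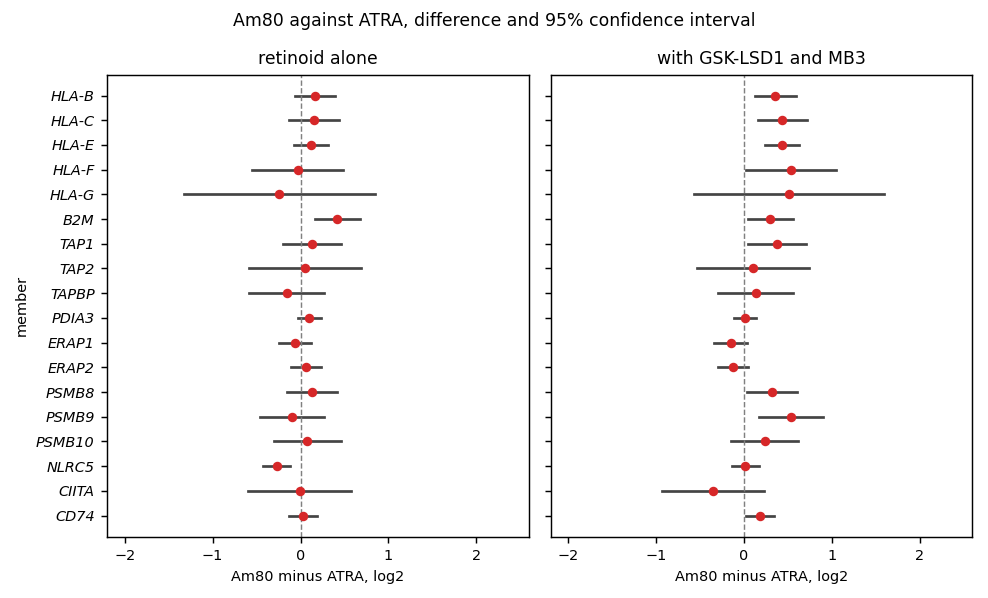
Difference between Am80 and ATRA (horizontal axis, log2; to the right is higher with Am80) for the 18 tested members, with the retinoid alone on the left and with both inhibitors on the right; points are limma estimates and lines their 95% confidence intervals. With the retinoid alone the intervals of B2M and NLRC5 leave 0, and with inhibitors those of 9 members do, all to the right.

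Further genes of the pathway were counted from lists of 48, of which 46 were tested. Against ATRA alone the inhibitors left 15 higher and 8 lower (all genes 24.9% and 24.4%), and against Am80 alone 13 higher and 10 lower (19.9% and 19.5%). Of 7 further genes of class I loading in the endoplasmic reticulum, the call was higher for 4 and lower for 1 with ATRA as the partner, and higher for 5 and lower for 0 with Am80. HSPA5, the chaperone BiP, rose by 0.59 and 0.71 on the log2 scale (adjusted p 7.5e-07 and 6.4e-08 by limma). Of 10 further proteasome and peptidase genes, the numbers were 4 higher and 1 lower with ATRA, and 3 higher and 0 lower with Am80. Of 15 genes of HLA transcription, they were 2 higher and 3 lower with ATRA, then 1 higher and 8 lower with Am80.

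With ATRA alone 8 of the 46 pathway genes were higher and 5 lower (all genes 12.5% and 12.1%). With Am80 alone 12 were higher and 2 lower (15.4% and 13.4%). In the values that follow, ATRA is given first and Am80 second. CD1D, a class I-like molecule that presents lipids, rose by 3.18 and 3.20 on the log2 scale (adjusted p 2.3e-18 and 2.0e-18). IRF1, a transcription factor of class I genes, rose by 2.20 and 2.15, CTSD, the protease cathepsin D, by 1.56 and 1.5, and HFE, a class I-like regulator of iron uptake, by 0.80 and 0.75. With inhibitors these 4 remained above untreated cells: CD1D by 2.32 and 2.41, IRF1 by 1.66 and 1.73, CTSD by 1.58 and 1.81 and HFE by 1.66 and 1.23. CD1D fell by 0.86 against ATRA and by 0.78 against Am80 when the inhibitors were added (adjusted p 2.8e-08 and 8.4e-08).

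Most members of class I and its processing lie within 1 stretch of chromosome 6, and other genes there were counted beside them. From HLA-F to TAPBP, at chr6:29722775-33314387 on GRCh38, 65 other genes were tested. With ATRA plus inhibitors 35 of them (53.8%) were lower and 10 (15.4%) higher than in untreated cells, against 30.0% and 30.2% of all genes. Against ATRA 21 (32.3%) were lower and 5 (7.69%) higher, against 24.4% and 24.9%. With Am80 plus inhibitors 17 (26.2%) were lower and 12 (18.5%) higher than in untreated cells, against 26.6% and 28.0%, and 10 (15.4%) lower and 9 (13.8%) higher than with Am80, against 19.5% and 19.9%. Of the tested members B2M and PDIA3 on chromosome 15, PSMB10, NLRC5 and CIITA on chromosome 16, and ERAP1, ERAP2 and CD74 on chromosome 5 lie outside this stretch.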

How the data were processed

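The authors counted reads per gene, divided them by DESeq2 size factors and deposited the normalized counts, a signal in the sense of scaled coverage per gene. The submitters' processing notes name FastQC, cutadapt, STAR, featureCounts and DESeq2. The genome build, annotation, strand setting and treatment of reads that fit several genes are not given in the sources used here. The kits in the labels and in the study's methods differ. Reads were recovered from the steps of the values, 100% of which came out whole within 0.001. Replicates of a group differed by more than counting noise, the chi-square over its degrees of freedom being 2.75 to 25.9 in 18 pairs, so none was counted as a repeat.

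Genes averaging 10 or more normalized counts (14643 of 62700) were fitted as log2(value + 1) with limma 3.58.1 in R 4.3.3, over all 16 libraries with a mean-variance trend, in 9 comparisons with Benjamini-Hochberg adjustment. Alternatives used edgeR 4.0.16 and DESeq2 1.42.0 on the recovered reads, other pseudocounts, filters and scalings, a replicate block, and leaving out each library. The scripts were tested on simulated data. Symbols matched 62700 of 62700 identifiers. Positions, exon lengths and overlaps came from GENCODE on GRCh38, and promoters from RefSeq for 24 of 29 members. HLA-E, PDIA3, NLRC5, CIITA and HLA-DRA had no window in that table. Values in every library are given for members called with at least 1.5-fold in a comparison with untreated cells or a retinoid, and for a fixed set of class references; pathway genes are named, at most 4 a pair of comparisons, when called alike in both with at least 1.5-fold. The members, lists and tests were chosen with earlier results of these data known. The 95% confidence intervals come from the limma fit and measure the spread between libraries, and floors in reads cover counting error only. Figures were drawn with matplotlib 3.10.9 in Python 3.11.15.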

Additional observations from a re-analysis of the deposited data

Results flagged for a closer look

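In groups of 4 libraries the highest or lowest value was compared with the range of its group for the 18 tested members, which chance alone exceeds in about 1 group in 20. B2M in untreated replicate 4 was 4445 normalized counts against 3024 to 3182 in the other untreated libraries, a gap of 0.889 of the range. PDIA3 in the same library was 8232 against 7827 to 7882, a gap of 0.865 of the range. Both exceed the Dixon limit at the 95% level for 4 libraries. The cause was not tested.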

How the results depend on the processing

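The 44 calls of members in the 6 comparisons with untreated cells or with a retinoid alone kept their direction under all alternatives run. All 44 were kept with pseudocounts of 0.5 and 5 and with edgeR, 40 with DESeq2, 37 without a filter, 37 with quantile normalization, 36 with scaling to total reads, 39 when only the groups compared were fitted, and 38 to 44 when 1 library was left out, while a mean of at least 50 kept 40 of the 40 still tested. The count for ATRA against untreated cells (4) was 1 without a filter and 2 with only the groups compared, and 1 to 4 with a library left out. All genes called were then 3158, 3106 and 2716 to 4039, in place of 3609. For Am80 against untreated cells (4) the member count was 2 with only the groups compared and 2 to 8 with a library left out. All genes called were then 2957 and 3399 to 4802, in place of 4211. For Am80 plus inhibitors against Am80 (7) it was 3 to 9 with a library left out, with 4620 to 6616 of all genes in place of 5778. The member count was 10 to 13 for ATRA plus inhibitors against ATRA (11), 11 to 13 for the same group against untreated cells (12), and 5 to 8 for Am80 plus inhibitors against untreated cells (6). All genes called were then 5910 to 7920 in place of 7226, 7869 to 9046 in place of 8819, and 7096 to 8329 in place of 8004. Between the retinoids alone (0) the member count was 2 with DESeq2 and 0 to 2 with a library left out. All genes called were then 343 and 0 to 458, in place of 35. Between them with inhibitors (0) it was 6 with only the groups compared, 1 with DESeq2 and 0 to 5 with a library left out. All genes called were then 1975, 119 and 0 to 646, in place of 0. Calls of at least 1.5-fold numbered 2, 1, 4 and 1 of 18 members for ATRA, Am80, ATRA plus inhibitors and Am80 plus inhibitors against untreated cells. The same limit called 1384, 1490, 4255 and 3814 of all 14643 genes. For the inhibitors beside ATRA and Am80 it called 7 and 3 members, with 2861 and 2300 of all genes. The interaction stayed at 0 members under all of these, with 27 of all genes called by DESeq2 and 0 to 41 with a library left out. Causes of these shifts were not tested. At 11963898 to 33789718 reads, members under 10 normalized counts could not be compared.

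Same-numbered replicates did not deviate together, with correlations of -0.11 to 0.19, so the numbers were not taken as pairs. With a replicate block, 40 of the 44 calls were kept. The member count for Am80 against untreated cells was then 8, that between the retinoids alone 2 and that between them with inhibitors 4. All genes called in these comparisons were 4746, 402 and 690, in place of 4211, 35 and 0. The block in effect leaves out untreated replicate 4, which has no partner.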
